A study of Arabidopsis thaliana with 12 samples.

Results

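Roots of Arabidopsis thaliana kept at pH 6 for 8 h were compared with roots kept at pH 4.5 for the same time, on 3 arrays of each, which are 6 of the 12 arrays of the study. The other 6 arrays hold the same pair of conditions after 1 h, again with 3 arrays of each, and are used below only to place the 8 h values in time and to estimate the spread. All plants were of the wild-type accession Col-0 (Columbia) and 3.90 weeks old. They grew at 23 °C with their roots in a non-sterile, half-strength nutrient solution with nitrate as its nitrogen source and potassium phosphate at pH 5.6. The labels name neither pH as the control and do not say whether the 3 arrays of a group came from separate cultures, so the p-values measure only the spread between these arrays, which may be technical.

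Root cells keep the fluid of their walls acidic by pumping protons out through ATPases of the plasma membrane, and the resulting proton gradient drives the uptake of many nutrients. Wall pH also acts on growth, because expansins loosen walls at low pH and many wall enzymes have a narrow pH range.

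The files hold 1 expression signal per probe set and array. For the comparison the signal was taken as log2(signal + 4) and each log2 difference given here is pH 6 minus pH 4.5, so a positive value is a higher level at pH 6. Each is given ± its standard error from the fit with 3 arrays per group, or alone where several stand together. A fold is read off the same scale and understates the change of dim genes. Of 22746 probe sets, 2083 were higher and 2042 lower at pH 6 at an adjusted p below 0.05 in limma with Benjamini-Hochberg adjustment, which is 9.16% and 8.98% of those tested and 18.1% in all. Such a probe set is called changed below. Among them 395 (1.74%) were higher and 676 (2.97%) lower by at least 2-fold. The 13286 genes that could be tied to a probe set of their own had 1111 higher (8.36%) and 1029 lower (7.74%) calls, or 16.1%, and a median log2 difference of 0.036. The 3 arrays of each pH did not overlap for 30.3% of genes. The rule that picked genes to name required this, so for those genes it adds no evidence.

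Array quality gave no difference between the 8 h groups that the ranges could separate. The median signal lay between 38.4 and 39.6 at pH 6 and between 38.4 and 40.01 at pH 4.5. The 3′ to 5′ signal ratio of the GAPDH controls lay between 1.10 and 1.49 at pH 6 and between 1.39 and 1.50 at pH 4.5, and the actin and ubiquitin ratios overlapped as well. Green-tissue markers were checked because the samples are labelled as roots. None of 14 nuclear photosynthesis genes and none of 45 plastid-encoded photosynthesis genes was called in limma at 8 h, against 3 and 4 genes at an unadjusted p below 0.05. The summed signal of the 14 nuclear genes was 323 to 361 at pH 6 and 273 to 303 at pH 4.5. LHCB4.2, a light-harvesting protein, was at or near 0 with mean signals of 1.92 at pH 6 and 0.923 at pH 4.5. However, 10 of the 14 nuclear genes and all 45 plastid-encoded genes had a mean signal above 11.1, the low-signal level used below. The plastid-encoded genes summed to 8677 to 9318 at pH 6 and 8835 to 9926 at pH 4.5. As sets these markers were therefore not absent. The part of the small shift in the nuclear sum in the results was not tested. In bulk RNA of this kind, a lower level from fewer cells of a type and from less RNA per cell cannot be told apart.

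To describe the response by function, 907 genes were placed in 63 groups by their gene symbols, and 692 of them had a mean signal above the 30th percentile of all probe sets. In these groups 105 genes were higher and 115 lower at pH 6, or 24.3%. The background for a group is the share among the 1525 genes with a symbol beyond the locus code, of which 20.1% were called, 9.25% higher and 10.9% lower. Of the probe sets above the 30th percentile of mean signal, 27.9% were called when fitted alone. Groups of mostly brighter genes therefore stand less far above brighter probe sets than above this background. The 11761 genes known by a locus code only had 15.6% called and are not described one at a time. Most of them are in no group, so the members counted as measured may be only part of a family.

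**Figure D1:**
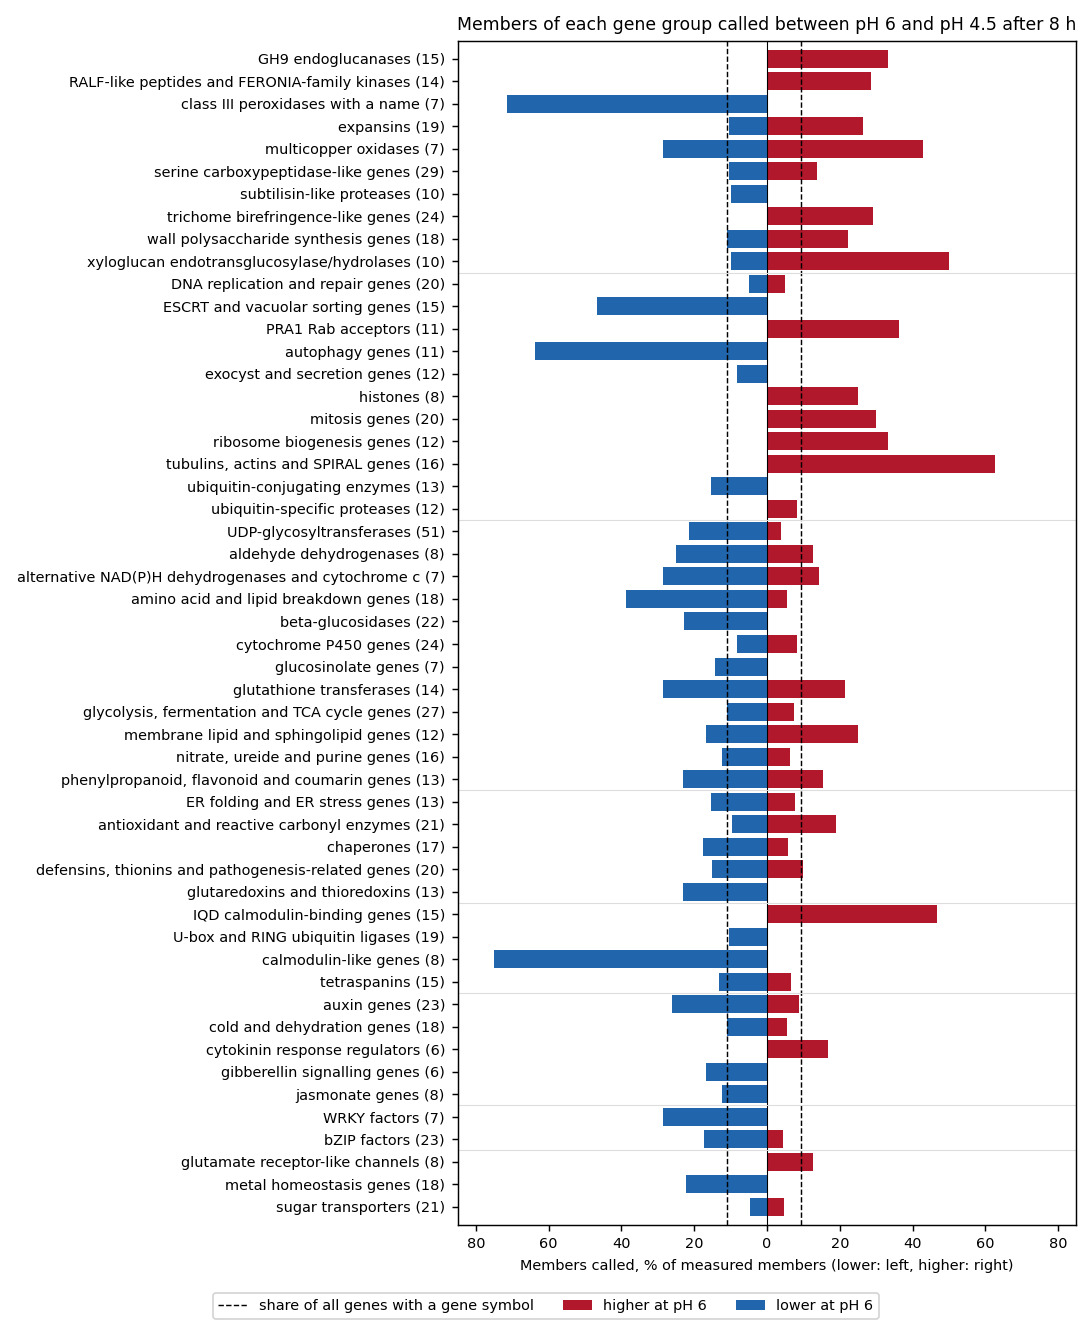
Share of the measured members of each gene group that was called between pH 6 and pH 4.5 after 8 h, with bars to the right for members higher at pH 6 and to the left for members lower at pH 6, on a percent axis, for the groups of 5 or more members with at least 1 call. The number of measured members stands in brackets, the dashed lines mark 9.25% higher and 10.9% lower among all genes with a symbol, and the longest bars are those of tubulins, actins and SPIRAL genes to the right and of autophagy genes, peroxidases and calmodulin-like genes to the left.

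Genes of the cytoskeleton had the largest share of members higher at pH 6 among the groups of 5 or more genes. Of 16 tubulin, actin and SPIRAL genes measured, 10 were higher, none was lower, and the group's median log2 difference was 0.45. TUB1, a beta-tubulin, had signals of 445, 513 and 373 at pH 6, against 74.4, 67.5 and 54.4 at pH 4.5. The lowest array at pH 6 was above every array at pH 4.5, and the log2 difference was 2.69 ± 0.14 (adjusted p = 7.23e-09), a 6.44-fold higher level. TUB5, another beta-tubulin, had 399.7, 399 and 355 at pH 6, against 127, 117 and 119 at pH 4.5, again without overlap, and a log2 difference of 1.63 ± 0.09 (adjusted p = 9.02e-09). ACT11, an actin, had 159.9, 172 and 196 at pH 6, against 67.5, 55.1 and 52.6 at pH 4.5, and the 2 sets of arrays lay apart with a log2 difference of 1.53 ± 0.12 (adjusted p = 2.90e-07). SP1L4, a relative of SPIRAL1, a small microtubule-binding protein, had 117, 118 and 101 at pH 6, against 42.3, 41.7 and 37.3 at pH 4.5, with a log2 difference of 1.38 ± 0.15 (adjusted p = 1.01e-05). The beta-tubulins TUB6, TUB7 and TUB9, the alpha-tubulin TUA6 and the SPIRAL relatives SP1L3 and SP1L5 were higher by smaller amounts, between 0.35 and 0.66 on the log2 scale, and of these 6 calls that of SP1L5 was lost without replicate 3 of either pH, with a value of 0.41 without pH 6 replicate 3 and 0.40 without pH 4.5 replicate 3. None of 6 myosin genes was called in limma, with 1 at an unadjusted p below 0.05. The 6 members of the tubulin, actin and SPIRAL group without a call, among them SPR1, TUA1, ACT12 and the tubulin-folding factors PFI and POR, lay between -0.11 and 0.22.

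The IQD genes code for proteins that bind calmodulin through an IQ67 domain, and several of them sit on microtubules. Of 15 measured, 7 were higher and none was lower at pH 6, with a median of 0.34. IQD19 had 37.3, 49.1 and 50.1 at pH 6, against 16.9, 16.4 and 14.6 at pH 4.5, and its log2 difference was 1.30 ± 0.16 (adjusted p = 3.26e-05). IQD16 was dim, with 10.4, 16.03 and 14.5 at pH 6, against 1.86, 2.05 and 2.63 at pH 4.5, and did not overlap between the groups (log2 difference 1.50 ± 0.28, adjusted p = 0.00138). IQD18 and IQD33 (iqd33) were also higher, by 1.06 and 1.05, but these calls were lost without pH 4.5 replicate 1, where the values were 0.74 and 0.86, without pH 6 replicate 2 for IQD18 (1.02), and without pH 6 replicate 1 or 3 for IQD33 (0.88 and 1.04). IQD30 and IQD31 were higher by 0.48 and 0.33. IQD32 (iqd32) was higher by 0.38, a call lost without any of 5 single arrays, with values between 0.34 and 0.43 over the 6 arrays left out. The count of IQD genes that were higher ranged from 4 to 8 over the settings tried.

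Genes that act in cell division and in making ribosomes shifted the same way by smaller amounts, and most of their calls were lost without single arrays. Of 20 mitosis genes, 6 were higher and none lower (median 0.32). ATMAP65-6, which bundles microtubules, had 260.1, 276 and 261 at pH 6, against 164, 208 and 192 at pH 4.5, with a log2 difference of 0.50 ± 0.10 (adjusted p = 0.00177). SIM, an inhibitor of cyclin-dependent kinases that turns cells from mitosis to endoreduplication, was higher too, with 416, 471 and 407 at pH 6, against 303, 321 and 311 at pH 4.5 (log2 difference 0.46 ± 0.10, adjusted p = 0.00493). AUR1, an Aurora kinase, and BUB3.1, of the spindle checkpoint, differed by 0.33 and 0.39. Both calls were lost without any of 4 single arrays, with values between 0.24 and 0.38 for AUR1 and between 0.33 and 0.45 for BUB3.1. The call of BUBR1 (0.55) was lost without any of the 6 arrays, with values between 0.45 and 0.64. That of FBL17 (0.45) was lost without any of 4, with values between 0.38 and 0.44. The number of mitosis genes called ranged from 2 to 7 over the settings tried. Of 12 ribosome biogenesis genes, 4 were higher and none lower, with a range of 1 to 4 over the settings. Each of the 4 calls was lost without at least 2 single arrays. The calls of AT3G09720 (0.65) and PRH75 (0.39) were lost without any of 3, with values of 0.57 and of 0.27 to 0.39. That of DIM1A (0.37) was lost without any of 5, with values between 0.22 and 0.42. PGY1, a ribosomal protein of the large subunit, had 1472, 1851 and 1466 at pH 6, against 1237, 1094 and 1268 at pH 4.5 and a log2 difference of 0.40 ± 0.10 (adjusted p = 0.0124), which was not called without pH 4.5 replicate 2 (0.34) or pH 6 replicate 2 (0.29). Of 8 histone genes, 2 were higher and none lower, and the histone H2B gene HTB1 had a log2 difference of 0.42 ± 0.10 (adjusted p = 0.00917). Among 20 DNA replication and repair genes there was 1 call in each direction, and none of 12 RNA polymerase subunits was called, with 1 at an unadjusted p below 0.05.

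**Figure D2:**
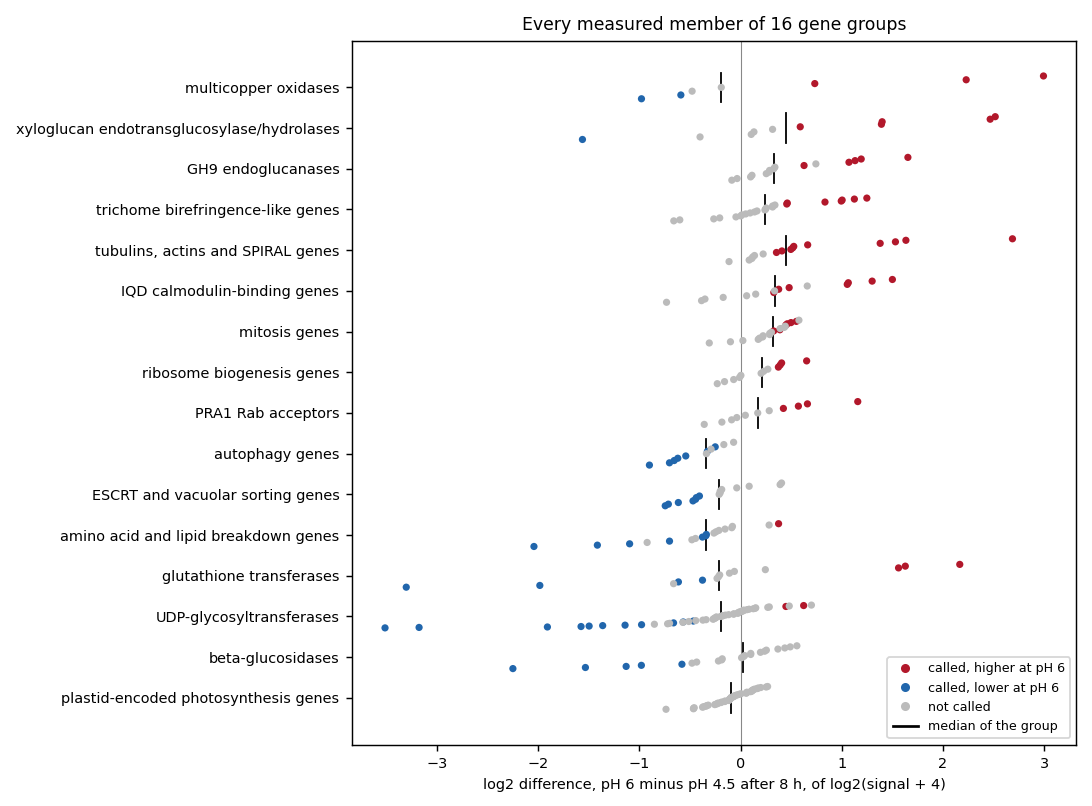
Log2 difference between pH 6 and pH 4.5 after 8 h (x axis) for every measured member of 16 gene groups (y axis), with members sorted within each group, called members in colour, members without a call in grey and the group's median as a black line. The tubulin, actin and SPIRAL genes lie almost all to the right of 0, the autophagy genes all to its left, and the glutathione transferases reach from -3.31 to 2.17.

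PRA1 proteins are small membrane proteins that receive Rab GTPases on secretory membranes. Of 11 measured, 4 were higher and none lower at pH 6. PRA1.B6 had 249.6, 286 and 348 at pH 6, against 125, 142 and 121 at pH 4.5, with no overlap and a log2 difference of 1.16 ± 0.12 (adjusted p = 4.01e-06). PRA1.B4 had 349.8, 353 and 382 at pH 6, against 267, 227 and 193 at pH 4.5 (log2 difference 0.66 ± 0.11, adjusted p = 6.95e-04), and PRA1.B1 differed by 0.42. PRA7 differed by 0.57, a call that was lost without pH 6 replicate 3 (0.43) or pH 4.5 replicate 3 (0.45). Among 12 exocyst and secretion genes 1 was lower and none higher.

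Peptides of the RALF family bind receptor kinases of the FERONIA family and, in Arabidopsis, raise wall pH and restrain cell growth. Of 14 genes of both kinds, 4 were higher and none lower. Among the ligands, RALFL34 had 311, 338 and 322 at pH 6, against 220.5, 218 and 209.9 at pH 4.5, a log2 difference of 0.57 ± 0.08 (adjusted p = 1.07e-04). RALFL24 and RALFL32 were higher by 0.65 and 0.32. Among the receptors, THE1 (THESEUS1), which senses the state of the wall, had 169, 171 and 166 at pH 6, against 88.6, 75.2 and 67.95 at pH 4.5. All arrays at pH 6 lay above all arrays at pH 4.5, with a log2 difference of 1.10 ± 0.10 (adjusted p = 1.20e-06). FER (FERONIA) itself differed by 0.17 ± 0.14, which was not called (adjusted p = 0.478), and ANX1 and ANX2 lay near 0 at 0.10 and -0.11.

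Several families of wall and cell-surface proteins were higher at pH 6 in many members. Of 7 multicopper oxidases, 3 were higher and 2 lower, with 1 to 2 lower over the settings tried. The 3 higher ones were SKU5 and SKU5-similar (sks) genes and the 2 lower ones LPR genes, but not every sks gene was called. SKU5, a glycolipid-anchored surface protein that guides the direction of root growth, had 1064, 1127 and 810.5 at pH 6, against 568, 614 and 602 at pH 4.5 and a log2 difference of 0.73 ± 0.11 (adjusted p = 2.64e-04). Its relative sks15 had 322, 291 and 304 at pH 6, against 32.3, 34.5 and 37.8 at pH 4.5, which do not overlap and differ by 2.99 ± 0.10 (adjusted p = 7.86e-11), a 7.96-fold higher level. The relative sks16 had 173, 150 and 148 at pH 6, against 29.8, 34.4 and 27.03 at pH 4.5, a log2 difference of 2.23 ± 0.12 (adjusted p = 8.89e-09). The relative sks18 lay at -0.19 and was not called. LPR2, a ferroxidase that acts in the root's response to low phosphate, went the other way with 67.8, 53.6 and 78.8 at pH 6, against 146, 147 and 112 at pH 4.5 (log2 difference -0.98 ± 0.15, adjusted p = 3.22e-04). LPR1 had a log2 difference of -0.59, a call lost without any of 5 single arrays, with values between -0.65 and -0.52.

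Xyloglucan endotransglucosylase/hydrolases (XTH) cut and rejoin the xyloglucan that ties cellulose fibres together. Of 10 measured, 5 were higher and 1 lower. XTH16 had 150.5, 139.6 and 106 at pH 6, against 15.97, 25.6 and 20.4 at pH 4.5 (log2 difference 2.47 ± 0.15, adjusted p = 2.62e-08), and XTH21 had 95.01, 72.9 and 60.8 at pH 6, against 8.48, 9.21 and 11.96 at pH 4.5 (log2 difference 2.52 ± 0.18, adjusted p = 1.35e-07). In both genes every array at pH 6 was several times above every array at pH 4.5. XTH26 ran against them with 13.5, 12.9 and 5.85 at pH 6, against 41.3, 42.95 and 31.3 at pH 4.5 (log2 difference -1.56 ± 0.24, adjusted p = 2.84e-04). GH9 endoglucanases, which cleave beta-glucan chains, had 5 of 15 members higher and none lower, but 7 of the 15 were above the low-signal level. GH9B13 had 359, 328 and 320.02 at pH 6, against 179, 146 and 149 at pH 4.5 (log2 difference 1.07 ± 0.16, adjusted p = 2.06e-04). GH9B7 was higher by 0.63.

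Trichome birefringence-like (TBL) genes code for proteins of which several add acetyl groups to wall polysaccharides. Of 24 measured, 7 were higher and none lower (median 0.24). TBL39 had 423, 459 and 457 at pH 6, against 210, 165 and 184 at pH 4.5 (log2 difference 1.25 ± 0.09, adjusted p = 2.51e-07), and TBL25 had 203, 179 and 199 at pH 6, against 97.5, 110.1 and 79.7 at pH 4.5 (log2 difference 0.99 ± 0.12, adjusted p = 3.63e-05). Of 18 genes of wall polysaccharide synthesis, 4 were higher and 2 lower, with 2 to 5 higher and 1 to 2 lower over the settings tried. COB (COBRA), an anchored protein needed for oriented cell expansion, differed by 0.33 ± 0.07 (adjusted p = 0.00474), with 782, 808 and 782 at pH 6, against 645, 631 and 614 at pH 4.5. GlcAT14B (AT5G15050), which adds glucuronic acid to arabinogalactan, had 92.6, 95.2 and 73.6 at pH 6, against 52.3, 57.3 and 45.95 at pH 4.5 (log2 difference 0.70 ± 0.13, adjusted p = 0.00155). CSLD2, a cellulose synthase-like protein, had a log2 difference of -0.35, and the call was lost without pH 6 replicate 2 (-0.32) or with no intensity trend in the variance (-0.35).

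Expansins held calls in both directions. Of 19 measured, 5 were higher and 2 lower, and the 2 lower ones belong to the expansin-like branches EXLA and EXLB. EXPA9 had 220.4, 209 and 168 at pH 6, against 31.4, 32.1 and 26.1 at pH 4.5 (log2 difference 2.58 ± 0.14, adjusted p = 1.06e-08), while EXLB1 had 88.9, 90.8 and 95.3 at pH 6, against 199, 268 and 332 at pH 4.5 (log2 difference -1.47 ± 0.13, adjusted p = 1.76e-06). EXPA7, which is active in root hairs, had 125, 140.4 and 139 at pH 6, against 71.3, 77.6 and 54.6 at pH 4.5 and differed by 0.96 ± 0.16 (adjusted p = 5.12e-04). EXPA7 was also the gene called among 3 root hair genes with a name. Of 10 subtilisin-like proteases SBT3.5 alone was called, with 20.3, 19.7 and 17.99 at pH 6, against 46.5, 38.3 and 43.6 at pH 4.5 (log2 difference -1.002 ± 0.20, adjusted p = 0.00219). None of 8 pectin-modifying enzymes was called by limma, with 3 at an unadjusted p below 0.05 and log2 differences from -0.81 to 0.59. The 7 class III peroxidases with a name had 5 lower and none higher. PRX71 (AT5G64120) had 84.04, 62.5 and 83.6 at pH 6, against 219.7, 230.2 and 286 at pH 4.5 (log2 difference -1.63 ± 0.18, adjusted p = 1.21e-05), and PRX72 (AT5G66390) had 331, 333 and 297 at pH 6, against 557, 608 and 621 at pH 4.5 (log2 difference -0.89 ± 0.10, adjusted p = 1.27e-05).

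**Figure D3:**
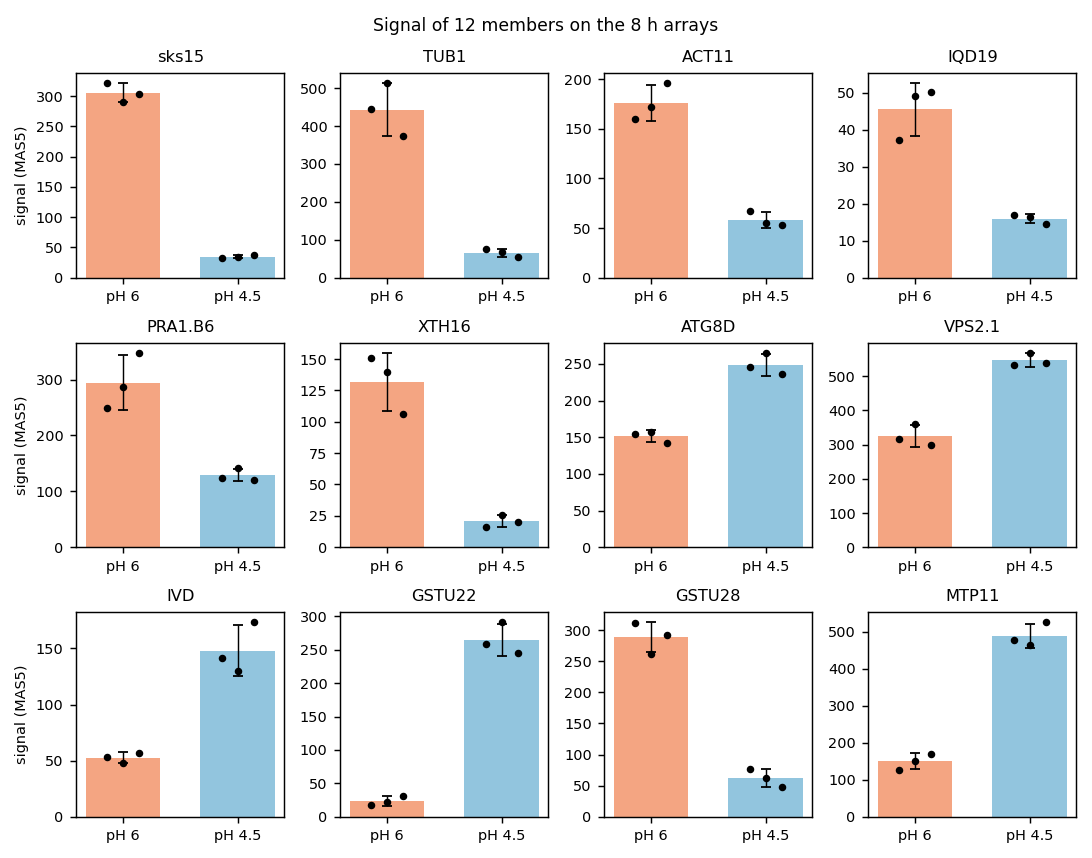
Signal on each of the 8 h arrays (y axis, linear and starting at 0) for 12 members of the groups described, with pH 6 left of pH 4.5, points for the 3 arrays of each pH, bars for their mean and error bars for the SD. In each of the 12 panels the points of the 2 groups do not overlap, which the rule for naming genes required. The genes sks15, TUB1, ACT11, IQD19, PRA1.B6, XTH16 and GSTU28 were higher at pH 6, and ATG8D, VPS2.1, IVD, GSTU22 and MTP11 were lower.

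Many genes of routes that carry material to the vacuole for breakdown were lower at pH 6. Autophagy wraps parts of the cell in a membrane and delivers them to the vacuole, and ATG8 proteins are bound to the lipid of that membrane. Of 11 autophagy genes, 7 were lower, none was higher and all 11 had a negative log2 difference, with a median of -0.34. All 7 calls were ATG8 genes, but most of the group's members are ATG8 genes. The counts therefore describe that family rather than autophagy as a whole. Over the settings tried, 5 to 7 were lower. The call of ATG8F (-0.25) was lost without any of 5 single arrays, with values between -0.31 and -0.19 over the 6 arrays left out. ATG8D had 154, 157 and 142 at pH 6, against 245, 266 and 236 at pH 4.5, without overlap (log2 difference -0.70 ± 0.08, adjusted p = 2.69e-05). ATG8H had 179.5, 171 and 134 at pH 6, against 250.3, 270.2 and 228 at pH 4.5 (log2 difference -0.62 ± 0.12, adjusted p = 0.00157), and ATG8B had 56.96, 44.3 and 31.4 at pH 6, against 73.6, 88.01 and 91.2 at pH 4.5 (log2 difference -0.90 ± 0.20, adjusted p = 0.00532). ATG8E differed by -0.66, a call that was lost without pH 6 replicate 3 (-0.48) or pH 4.5 replicate 3 (-0.60). ATG8C and ATG8G were not called, at -0.34 and -0.29, and neither was ATG3, the enzyme that attaches ATG8 to lipid, at -0.17.

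ESCRT complexes bend membrane into multivesicular bodies and so carry ubiquitin-tagged membrane proteins to the vacuole. Of 15 ESCRT and vacuolar sorting genes, 7 were lower and none higher, and all 7 were subunits or relatives of ESCRT-III, the complex that cuts the vesicle off. VPS2.1 had 316, 361 and 299.5 at pH 6, against 534, 569.6 and 538 at pH 4.5, with no overlap (log2 difference -0.75 ± 0.08, adjusted p = 1.39e-05). VPS60.1 had 134, 129.7 and 128 at pH 6, against 204, 190.1 and 212 at pH 4.5 (log2 difference -0.62 ± 0.09, adjusted p = 1.18e-04). SNF7.1 had 139, 135 and 150.4 at pH 6, against 189, 195 and 198 at pH 4.5 (log2 difference -0.45 ± 0.09, adjusted p = 0.00206), and VPS20.1 had 102, 107 and 92.4 at pH 6, against 122, 149 and 153 at pH 4.5 (log2 difference -0.47 ± 0.11, adjusted p = 0.00604). VPS60.2 had a log2 difference of -0.44. VPS46.2 differed by -0.41, a call lost without any of 3 single arrays, with values between -0.48 and -0.29. SNF7.2 differed by -0.71 with arrays that overlapped between the groups, and its call was lost without any of 5 single arrays, with values between -1.06 and -0.36, the second without pH 6 replicate 3. ELC, of ESCRT-I, and VPS22, of ESCRT-II, were not called at -0.20 and -0.21. The summed signal of the 15 genes was 1729 to 1989.9 at pH 6 and 2462 to 2546 at pH 4.5.

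Of 18 genes of amino acid and lipid breakdown, 7 were lower and 1 higher, with a median of -0.34. IVD, the isovaleryl-CoA dehydrogenase of leucine breakdown in mitochondria, had 53.6, 47.6 and 56.9 at pH 6, against 141, 129.6 and 174 at pH 4.5 (log2 difference -1.42 ± 0.12, adjusted p = 8.41e-07). MCCA, a subunit of methylcrotonyl-CoA carboxylase in the same pathway, had 92.1, 82.6 and 82.5 at pH 6, against 119, 112 and 214 at pH 4.5, without overlap (log2 difference -0.70 ± 0.18, adjusted p = 0.0126). The log2 difference of MCCA was -0.41 without pH 4.5 replicate 3, its highest array, and its call was lost in the fit of the 6 arrays at 8 h alone. Its partner subunit MCCB lay at -0.26 and was not called. DELTA-OAT, the ornithine aminotransferase, had 66.3, 69.3 and 62.02 at pH 6, against 144, 130.2 and 163 at pH 4.5 (log2 difference -1.10 ± 0.14, adjusted p = 5.59e-05). ASPGB1, an asparaginase, had 56.4, 48.8 and 70.6 at pH 6, against 216, 204 and 359.6 at pH 4.5 (log2 difference -2.04 ± 0.21, adjusted p = 7.11e-06). The second asparaginase gene measured, ASPGA1, was higher by 0.37, a call lost without pH 4.5 replicate 1 (0.30). Of the genes that work on fatty acids, AIM1, of peroxisomal beta-oxidation, had a log2 difference of -0.38 ± 0.09 (adjusted p = 0.00667).

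The ubiquitin system had few calls. Of 13 ubiquitin-conjugating enzymes 2 were lower and none higher, led by UBC16 with 93.9, 85.2 and 83.7 at pH 6, against 198, 174 and 193 at pH 4.5 (log2 difference -1.07 ± 0.13, adjusted p = 3.06e-05). Of 19 U-box and RING ubiquitin ligases 2 were lower (1 to 3 over the settings tried) and none higher, led by PUB24, which restrains immune signalling, with 23.1, 30.4 and 31.7 at pH 6, against 60.8, 65.5 and 58.7 at pH 4.5 (log2 difference -1.03 ± 0.14, adjusted p = 1.18e-04). Of 12 ubiquitin-specific proteases only UBP19 was called, higher by 0.63 ± 0.14 (adjusted p = 0.0056). Serine carboxypeptidase-like genes had 4 of 29 members higher and 3 lower, and over the settings tried the lower count ranged from 0, without pH 4.5 replicate 3, to 3. SCPL34 had 71.3, 93.7 and 76.4 at pH 6, against 13.7, 25.98 and 12.6 at pH 4.5 (log2 difference 2.02 ± 0.19, adjusted p = 2.01e-06), and scpl40 had 79.01, 77.8 and 84.3 at pH 6, against 20.2, 20.3 and 16.6 at pH 4.5 (log2 difference 1.88 ± 0.13, adjusted p = 6.29e-08). None of 8 vacuolar processing enzymes and protease inhibitors was called in limma, nor was any at an unadjusted p below 0.05.

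In central metabolism most members were not called while 2 genes of gluconeogenic carbon flow were far lower at pH 6. Of 27 genes of glycolysis, fermentation and the TCA cycle, 2 were higher and 3 lower, and the group's median was 0.033. PPDK, which makes phosphoenolpyruvate from pyruvate, had 16.4, 11.9 and 23.2 at pH 6, against 189.8, 172 and 236 at pH 4.5 (log2 difference -3.29 ± 0.26, adjusted p = 3.19e-07). ICL, the isocitrate lyase of the glyoxylate cycle, had 6.91, 9.55 and 5.13 at pH 6, against 149.9, 164 and 133 at pH 4.5 (log2 difference -3.79 ± 0.36, adjusted p = 2.68e-06). ACLB-1, a subunit of ATP-citrate lyase, which makes acetyl-CoA in the cytosol, had 449, 515 and 396 at pH 6, against 355, 332 and 317 at pH 4.5 (log2 difference 0.43 ± 0.09, adjusted p = 0.00456), and its partner subunit ACLA-1 differed by 0.28 ± 0.09 (adjusted p = 0.0367), a call lost without any of 5 single arrays, with values between 0.23 and 0.33. Of 7 alternative NAD(P)H dehydrogenase and cytochrome c genes, 1 was higher and 2 lower, and NDB2 had 211, 199 and 189 at pH 6, against 273, 247 and 285 at pH 4.5 (log2 difference -0.42 ± 0.08, adjusted p = 0.0021). Of 8 aldehyde dehydrogenases, 1 was higher and 2 lower, with 0 to 1 and 1 to 2 over the settings tried. ALDH7B4, a stress-responsive member, had 336, 347 and 273 at pH 6, against 895, 809 and 1066 at pH 4.5 (log2 difference -1.52 ± 0.12, adjusted p = 2.97e-07).

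In nitrogen metabolism, 1 of 16 nitrate, ureide and purine genes was higher and 2 were lower, and the ureide pathway held calls of both signs. ALN, the allantoinase, had 119.8, 152 and 122 at pH 6, against 74.2, 80.8 and 91.1 at pH 4.5 (log2 difference 0.65 ± 0.13, adjusted p = 0.00285). AAH, the allantoate amidohydrolase of the next step, had 80.4, 77.99 and 74.97 at pH 6, against 179, 184 and 254 at pH 4.5 (log2 difference -1.34 ± 0.16, adjusted p = 1.97e-05). NPF4.3 (AT1G59740), of the NRT1/PTR transporter family, had 160.04, 193 and 209 at pH 6, against 319, 382 and 470.5 at pH 4.5 (log2 difference -1.03 ± 0.15, adjusted p = 2.02e-04). Of 12 membrane lipid and sphingolipid genes, 3 were higher and 2 lower. The lower count was 1 when any single array was left out, and the higher count was 1 without pH 4.5 replicate 2. LCB2, a subunit of the enzyme that starts sphingolipid synthesis, had 206, 188 and 181 at pH 6, against 140.02, 137 and 140.1 at pH 4.5 (log2 difference 0.45 ± 0.09, adjusted p = 0.00231). GPDHC1, a cytosolic glycerol-3-phosphate dehydrogenase, had 140.4, 159.8 and 138 at pH 6, against 215, 238 and 241 at pH 4.5 (log2 difference -0.65 ± 0.10, adjusted p = 1.94e-04).

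Enzymes that conjugate small molecules gave large changes in single members. Glutathione transferases attach glutathione to reactive compounds, and of 14 measured 3 were higher and 4 lower, counts that were the same under every setting tried. GSTU22 had 17.02, 22.7 and 31.6 at pH 6, against 258, 292 and 245 at pH 4.5 (log2 difference -3.31 ± 0.18, adjusted p = 8.89e-09), a 9.89-fold lower level at pH 6. GSTU28 ran the other way with 311, 263 and 293 at pH 6, against 76.3, 61.8 and 48.1 at pH 4.5 (log2 difference 2.17 ± 0.14, adjusted p = 4.21e-08). GSTU25 and GSTU26 are neighbours by locus code, AT1G17180 and AT1G17190, and went in opposite directions. GSTU25 had 16.7, 20.9 and 17.6 at pH 6, against 84.1, 88.8 and 80.3 at pH 4.5 (log2 difference -1.99 ± 0.17, adjusted p = 1.13e-06), and GSTU26 had 315, 322 and 281 at pH 6, against 85.6, 113 and 91.5 at pH 4.5 (log2 difference 1.63 ± 0.13, adjusted p = 3.92e-07). ATGSTF13, of the phi class, was higher by 1.56 ± 0.11 (adjusted p = 1.51e-07).

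UDP-glycosyltransferases attach sugars to hormones and secondary compounds. Of 51 measured, 11 were lower and 2 higher, and 30 were above the low-signal level. UGT73D1 had 11.5, 18.4 and 9.23 at pH 6, against 144, 133 and 164 at pH 4.5 (log2 difference -3.18 ± 0.24, adjusted p = 2.64e-07). UGT76B1, which glucosylates compounds that act in defence, had 213, 205 and 252 at pH 6, against 502, 536 and 454 at pH 4.5 (log2 difference -1.14 ± 0.12, adjusted p = 6.14e-06). UGT71C1 was among the 2 that were higher, with 697, 699.6 and 527 at pH 6, against 476, 454 and 322 at pH 4.5 (log2 difference 0.62 ± 0.14, adjusted p = 0.00678). Beta-glucosidases (BGLU), which remove such sugars, had 5 of 22 members lower and none higher, with 9 members above the low-signal level and 2 to 5 members lower over the settings tried. BGLU25 had 217, 204 and 191 at pH 6, against 1134, 1052 and 802 at pH 4.5 (log2 difference -2.25 ± 0.11, adjusted p = 2.94e-09). The group's median was 0.018. None of 7 ER body genes was called, with 1 at an unadjusted p below 0.05, and PYK10, the beta-glucosidase of these bodies, lay at 0.0091.

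Of 13 phenylpropanoid, flavonoid and coumarin genes, 2 were higher and 3 lower. F6'H1 (AT3G13610), the enzyme that opens the route to coumarins which roots release when iron is scarce, had 1418, 1393 and 1499 at pH 6, against 2267, 2165 and 2638 at pH 4.5 (log2 difference -0.71 ± 0.12, adjusted p = 6.67e-04). CCR2, a cinnamoyl-CoA reductase, had 40.9, 37.6 and 21.7 at pH 6, against 77.9, 76.99 and 84.8 at pH 4.5 (log2 difference -1.21 ± 0.18, adjusted p = 1.68e-04). CHIL, a chalcone isomerase-like gene, had 171, 179 and 235 at pH 6, against 110.3, 111 and 72.7 at pH 4.5 (log2 difference 0.98 ± 0.21, adjusted p = 0.0035). Of 24 cytochrome P450 genes, 2 were higher and 2 lower. These counts ranged from 0 to 4 higher and from 1 to 2 lower over the settings tried, with 0 or 1 higher when any single array was left out. Among the lower genes CYP71B6 had 213, 232 and 184 at pH 6, against 488, 552 and 494 at pH 4.5 (log2 difference -1.27 ± 0.09, adjusted p = 9.85e-08). Of 7 glucosinolate genes UGT74B1 alone was called, with a log2 difference of -0.57 ± 0.09 (adjusted p = 5.31e-04).

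Of 13 glutaredoxins and thioredoxins, 3 were lower and none higher. GRX480, a glutaredoxin that binds TGA transcription factors, had 7.37, 5.92 and 11.3 at pH 6, against 45.4, 42.5 and 53.7 at pH 4.5 (log2 difference -2.09 ± 0.28, adjusted p = 6.89e-05). GRXC1 had a log2 difference of -0.77, and its value ranged from -0.92 to -0.47 as single arrays were left out, the second of these without pH 6 replicate 3. Of 21 antioxidant and reactive carbonyl enzymes, 4 were higher and 2 lower, with 2 to 4 higher and 1 to 3 lower over the settings tried. GR1, a glutathione reductase, had 409, 417 and 329.7 at pH 6, against 585, 585 and 575 at pH 4.5 (log2 difference -0.60 ± 0.09, adjusted p = 2.24e-04). TAPX, the thylakoid ascorbate peroxidase, was dim with 12.3, 13.7 and 9.64 at pH 6, against 1.41, 1.63 and 3.402 at pH 4.5 (log2 difference 1.37 ± 0.24, adjusted p = 7.72e-04). Of 17 chaperones, 1 was higher and 3 lower (0 to 1 and 1 to 3 over the settings), and Hsp70-2 led with 269, 222 and 266 at pH 6, against 579.9, 564 and 504 at pH 4.5 (log2 difference -1.11 ± 0.11, adjusted p = 5.14e-06).

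Of 13 genes of protein folding and stress in the endoplasmic reticulum, 1 was higher and 2 were lower, and the lower count was 1 or 2 over the settings tried. The transcription factor gene BZIP60, which responds to unfolded protein in the endoplasmic reticulum, had 197, 135 and 165 at pH 6, against 292, 262 and 252 at pH 4.5 (log2 difference -0.70 ± 0.11, adjusted p = 4.66e-04). The related factor gene BZIP28 had a log2 difference of -0.36, a call lost without pH 4.5 replicate 2 (-0.30) or with no intensity trend (-0.36). CRT1b, a calreticulin, had 1017, 1099.5 and 1100.3 at pH 6, against 805, 757 and 748 at pH 4.5 (log2 difference 0.48 ± 0.08, adjusted p = 9.42e-04). Of 20 defensins, thionins and pathogenesis-related genes, 2 were higher and 3 lower. OSM34, an osmotin-like protein, had 422, 339 and 341 at pH 6, against 1142, 1036 and 1365 at pH 4.5 (log2 difference -1.67 ± 0.14, adjusted p = 7.56e-07), while the defensin gene PDF2.5 had 326, 424 and 334 at pH 6, against 216, 186 and 209 at pH 4.5 (log2 difference 0.81 ± 0.11, adjusted p = 1.04e-04). Of 18 cold and dehydration genes, 1 was higher and 2 lower, and the dehydrin gene LTI30 had 406, 409 and 395 at pH 6, against 1263, 1248 and 1169 at pH 4.5 (log2 difference -1.60 ± 0.08, adjusted p = 3.89e-09).

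Calmodulin-like genes, which sense calcium, had the lowest median of the groups of 5 or more genes. Of 8 calmodulin-like genes, 6 were lower and none higher, with a median of -1.17. The group was already shifted after 1 h, with 4 lower, 1 higher and a median of -0.68. The change of the pH effect from 1 h to 8 h was called towards lower for 2 and towards higher for 1. CML37 and CML38 had 8 h log2 differences of -2.44 and -2.01, and for neither was that change called. CML41 was not called at 1 h (-0.23). CML41 had 9.84, 16.7 and 15.6 at pH 6, against 105, 94.8 and 75.9 at pH 4.5 (log2 difference -2.42 ± 0.21, adjusted p = 8.04e-07), and CML43 had 122, 127 and 113 at pH 6, against 239, 271 and 217 at pH 4.5 (log2 difference -0.98 ± 0.14, adjusted p = 1.66e-04). Of 23 auxin genes, 2 were higher and 6 lower. LBD16 and LBD29, transcription factors that start lateral roots downstream of auxin, were lower together with PUCHI, which acts in the young primordium. LBD16 had 36.7, 26.9 and 29.1 at pH 6, against 78.1, 73.5 and 95.997 at pH 4.5 (log2 difference -1.31 ± 0.15, adjusted p = 1.65e-05), and PUCHI differed by -0.81 ± 0.18 (adjusted p = 0.00426). WAG2, a protein kinase that acts on auxin transport, had 81.1, 98.2 and 72.3 at pH 6, against 28.8, 37.96 and 34.5 at pH 4.5 (log2 difference 1.22 ± 0.18, adjusted p = 1.68e-04). Among 6 gibberellin signalling genes the receptor gene GID1B was called, with 177, 161 and 160.2 at pH 6, against 266, 279 and 271 at pH 4.5 (log2 difference -0.70 ± 0.09, adjusted p = 5.78e-05), and among 8 jasmonate genes OPCL1, of jasmonate synthesis, was called with a log2 difference of -0.68 ± 0.11 (adjusted p = 3.36e-04). Among 6 cytokinin response regulators, none of which was above the low-signal level, 1 was called. None of 6 CLE peptide genes was called, with 1 at an unadjusted p below 0.05.

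Of 7 WRKY factors, 2 were lower and none higher. WRKY6, known from senescence and phosphate responses, had 62.4, 65.04 and 74.3 at pH 6, against 189.9, 163 and 176 at pH 4.5 (log2 difference -1.34 ± 0.11, adjusted p = 4.00e-07). Of 23 bZIP factors, 1 was higher and 4 lower (2 to 4 over the settings), and the higher one, BZIP61, had 99.7, 87.9 and 80.6 at pH 6, against 11.6, 15.9 and 14.4 at pH 4.5 (log2 difference 2.38 ± 0.17, adjusted p = 1.40e-07). Among 15 tetraspanins, which organise membrane domains, 1 was higher and 2 lower. TET7 had 206, 252 and 190.2 at pH 6, against 104, 107 and 104 at pH 4.5 (log2 difference 1.01 ± 0.11, adjusted p = 8.58e-06) and TET8 had 566, 573 and 569 at pH 6, against 953, 1026 and 903 at pH 4.5 (log2 difference -0.75 ± 0.08, adjusted p = 5.84e-06).

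Proton pumps of the vacuole and cation/proton exchangers were looked at as groups. None of 5 vacuolar proton ATPase subunit genes was called in limma, with log2 differences from -0.12 to 0.18 and none at an unadjusted p below 0.05, and none of 7 cation/proton exchangers of the CHX family was called, with 1 at an unadjusted p below 0.05 and 1 above the low-signal level. The plasma-membrane proton ATPases are not analysed here. Of 18 metal homeostasis genes, 4 were lower and none higher. MTP11, a manganese transporter of internal membranes, had 127, 152 and 169.9 at pH 6, against 479, 465 and 526 at pH 4.5, without overlap (log2 difference -1.69 ± 0.10, adjusted p = 2.85e-08), a 3.23-fold lower level at pH 6. The other 3 were F6'H1, LPR1 and LPR2. Of 21 sugar transporters 1 was called in each direction (0 or 1 over the settings), and of 8 glutamate receptor-like channels GLR3.5 was higher, with 31.2, 20.4 and 23.1 at pH 6, against 10.3, 13.03 and 9.3997 at pH 4.5 (log2 difference 0.95 ± 0.22, adjusted p = 0.00663).

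Most of these calls were made at 8 h and not at 1 h. Of the 2140 genes called at 8 h, 312 were called in the same direction at 1 h, 92 in the opposite direction and 1736 not at all at 1 h, when 762 genes, 5.74%, were called. A call at a single time does not show a difference between the times, so the change of the pH effect from 1 h to 8 h was tested in the same fit. It was called for 1098 genes, 8.26%, and for 687 of the 1736. Of the 10 cytoskeleton genes that were higher at 8 h, 6 had a pH effect that differed between the times, and TUB1 differed between pH values by 0.10 ± 0.14 at 1 h and 2.69 ± 0.14 at 8 h (difference 2.58 ± 0.20, adjusted p = 1.06e-06). Of the autophagy genes, 4 differed between the times, among them ATG8D with 0.03 ± 0.08 at 1 h and -0.70 ± 0.08 at 8 h (difference -0.73 ± 0.12, adjusted p = 9.01e-04). None of the ESCRT genes did, and VPS2.1 was already lower at 1 h, with a log2 difference of -0.60 ± 0.08 (adjusted p = 3.24e-04). IQD16 was likewise higher at both times, by 1.21 ± 0.28 at 1 h and 1.50 ± 0.28 at 8 h.

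Several wall and growth genes reversed between the times. THE1 had 1 h signals of 122, 107 and 108 at pH 6, against 283, 267 and 263 at pH 4.5, the opposite order to that at 8 h, and the difference between the effects was 2.34 ± 0.14 (adjusted p = 7.59e-08). XTH19 had 171, 261 and 298 at pH 6, against 1151, 1097 and 1127 at pH 4.5 at 1 h and 411, 390.2 and 387 at pH 6, against 150.3, 156 and 137 at pH 4.5 at 8 h, with effects of -2.23 ± 0.14 and 1.40 ± 0.14 (difference 3.63 ± 0.20, adjusted p = 4.91e-08). ACT11 had effects of -0.64 ± 0.12 at 1 h and 1.53 ± 0.12 at 8 h, and PRA1.B4 of -0.72 ± 0.11 and 0.66 ± 0.11. The phenylpropanoid gene CCOAMT, a caffeoyl-CoA O-methyltransferase, ran the other way, with 0.86 ± 0.20 at 1 h and -2.47 ± 0.20 at 8 h (difference -3.33 ± 0.29, adjusted p = 2.24e-06), as did WRKY53, a regulator of senescence, with 1.15 ± 0.10 and -0.54 ± 0.10. In the plot of effects at both times these genes lie far from the diagonal.

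**Figure D4:**
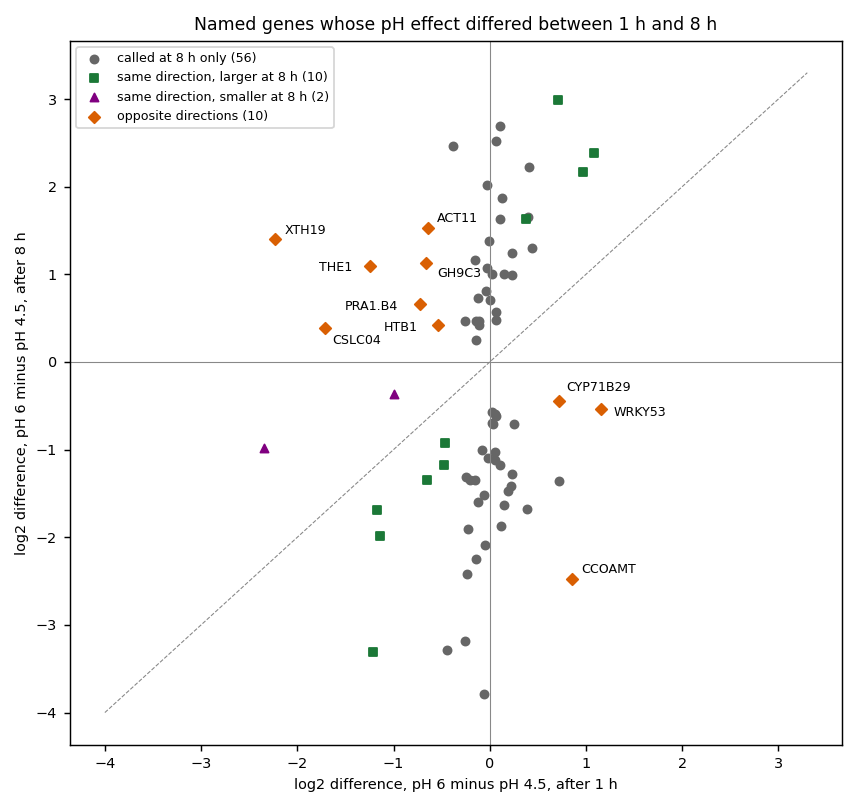
Log2 difference between pH 6 and pH 4.5 after 1 h (x axis) and after 8 h (y axis) for the 78 named genes whose pH effect differed between the times at an adjusted p below 0.05 in limma, with equal effects on the dashed diagonal. The 56 genes called at 8 h only had 1 h differences between -0.44 and 0.72, and the 10 genes called in opposite directions, labelled by symbol, lie at the upper left and the lower right.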

How the data were processed

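Signals were measured on Affymetrix ATH1 arrays from root RNA, 3 arrays in each of 4 groups. The authors deposited 1 intensity per probe set and array, made with MAS5 in GCOS per the submitters' processing notes. The deposited intensities have a 2% trimmed mean of 100.0 on every array, and their versions and settings are not given in the sources used here. Precision is set by the number of arrays.

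Of 22810 probe sets, 64 controls were left out and 22746 tested. All 12 arrays were fitted with 1 mean per group in limma 3.58.1 (R 4.3.3) on log2(intensity + 4), with an intensity trend in the variance. At each time pH 4.5 was subtracted from pH 6, and the 1 h effect was subtracted from the 8 h effect, with Benjamini-Hochberg adjustment over all probe sets. The procedure was tested on simulated data. Probe sets were named through the platform's annotation and RefSeq locus codes (TAIR10.1): 13513 named 1 gene, 503 several, and 13436 matched RefSeq. For a gene with several probe sets the brightest was used.

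Gene groups were made from symbols, because the reference used here gives no descriptions, and they replace the pattern lists planned first. Groups and members were chosen with earlier results of these data known. In each group of 5 or more genes the rule names the 4 called genes with the largest log2 difference whose arrays do not overlap, plus the largest in the other direction. The report names only a part of these genes, and a gene not named did not thereby fail the rule. For example, UGT73B4 (log2 difference -3.52) and EXPB1 (2.25) kept their calls without any 1 array and are not described. A gene whose call was lost without an array is named only with the value that ended it. Members named outside the rule were chosen after their values were seen. Planned promoter motifs and proton pump genes were not analysed here, and 1 further gene group is not reported here. The alternatives were a filter on low signal, other pseudocounts, median centring, quantile normalization, the 8 h arrays alone, no trend, a replicate block, every probe set of a gene, and leaving out each 8 h array.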

Additional observations from a re-analysis of the deposited data

Results flagged for a closer look

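The pH effect at 8 h was set against that at 1 h for the 163 genes that the naming rule gives, and for 78 of them the difference between the effects passed the test in limma (adjusted p below 0.05). The values below are the 8 h effect minus the 1 h effect on the log2 scale, and a positive value is a larger shift towards pH 6 at 8 h. No explanation is offered for them. Groups of 3 arrays were too small for an outlier test on single arrays. Each 8 h array was left out in turn, but no 1 h array was. For single genes only the 8 h effect was followed over the settings, and not the difference between the effects. GH9B17 and LCR67 were below the low-signal level, and GH9B17 passed the limma test of the difference at an adjusted p of 0.0472.

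Called in opposite directions at the 2 times were 10 genes. XTH19 (3.63), THE1 (2.34), ACT11 (2.17), CSLC04 (2.10), GH9C3 (1.79), PRA1.B4 (1.38) and HTB1 (0.96) were lower at pH 6 after 1 h and higher after 8 h. CCOAMT (-3.33), WRKY53 (-1.69) and CYP71B29 (-1.17) were higher after 1 h and lower after 8 h. The 8 h call of CSLC04 was lost without any of the 6 arrays and that of CYP71B29 without any of 5, so for them the reversal rests on a small 8 h effect. The values of CSLC04 at 8 h ranged from 0.32 to 0.43 where its call was lost, and those of CYP71B29 from -0.51 to -0.38.

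Called in the same direction at both times with a larger effect at 8 h were 10 genes. Lower at pH 6 were GSTU22 (-2.09), GSTU25 (-0.85), SRC2 (-0.70), WRKY6 (-0.69), MTP11 (-0.53) and PRX25, AT2G41480 (-0.47). Higher were sks15 (2.28), BZIP61 (1.30), TUB5 (1.26) and GSTU28 (1.20). With a smaller effect at 8 h than at 1 h were EXLA1 (1.36) and PGM (0.64), both lower at pH 6 at both times. The 8 h call of PGM was lost without any of 3 single arrays, with values between -0.34 and -0.27.

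Called at 8 h and not at 1 h were 56 genes. Among those higher at pH 6, the wall and surface genes were XTH16 (2.85), XTH21 (2.45), sks16 (1.83), SKU5 (0.86), GH9B17 (1.26), GH9B13 (1.10), TBL39 (1.01), TBL25 (0.77), GlcAT14B, AT5G15050 (0.70), and RALFL34 (0.51). The growth, cytoskeleton and secretion genes were TUB1 (2.58), SP1L4 (1.39), PRA1.B6 (1.31), TET7 (0.98) and IQD19 (0.86). The peptidase genes were SCPL34 (2.06), scpl40 (1.75) and SCPL27 (0.86). Metabolic and stress genes were GSTU26 (1.52), PDF2.5 (0.84), GLDH (0.72), TSC10A (0.62), FATB (0.57), ACLB-1 (0.54), CRT1b (0.41) and LEA27, AT2G46140 (0.40). The 8 h call was lost without any of 3 single arrays for GLDH (values between 0.34 and 0.45) and TSC10A (0.38 to 0.44), of 2 for FATB (0.41 to 0.42) and of 4 for LEA27 (0.22 to 0.25).

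Among those lower at pH 6, the genes of metabolism were ICL (-3.73), PPDK (-2.85), UGT73D1 (-2.93), UGT87A2 (-1.69), UGT74B1 (-0.59), BGLU25 (-2.11), IVD (-1.64), DELTA-OAT (-1.08), AAH (-1.14), ALDH7B4 (-1.46), CYP71B6 (-1.50) and F6'H1, AT3G13610 (-0.96). The stress, redox and defence genes were OSM34 (-2.06), CHI (-1.99), LCR67 (-1.28), GRX480 (-2.04), GR1 (-0.65), LTI30 (-1.48), Hsp70-2 (-1.17), PRX71, AT5G64120 (-1.78), Prx37 (-0.93) and PRX52 (-2.08). The wall gene EXLB1 (-1.66), the autophagy genes ATG8D (-0.73) and ATG8H (-0.68), and the regulators CML41 (-2.19), LBD16 (-1.07), LBD29 (-1.20), GID1B (-0.72) and PUB24 (-1.08) completed this set. The 8 h call of PRX52 was lost without any of 5 single arrays (values between -1.46 and -1.06), with a pseudocount of 1 and with no intensity trend.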

How the results depend on the processing

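The number of probe sets higher at pH 6 after 8 h (2083) and lower (2042) stayed within 1.5 times under every alternative. It was 2322 and 2123 with a filter at the 30th percentile of mean signal, 2085 and 2042 with a pseudocount of 1, 2074 and 2035 with a pseudocount of 16, 2041 and 2037 with arrays centred on the median, 2103 and 2031 after quantile normalization, 1850 and 1899 in a fit of the 6 arrays at 8 h alone, and 1665 and 1733 with no intensity trend in the variance. Leaving out 1 array at a time gave 1566 to 1774 higher and 1610 to 1810 lower. With the replicate block the counts were 2093 and 2078. Between the pH groups at 8 h, deviations from the group mean correlated at 0.039 to 0.066 for arrays of the same replicate number. Different numbers gave -0.0355 to -0.0132. Each 8 h array thus correlated best with its own number, but the correlations were weak. The numbers were not taken to pair the samples, and a pairing is not excluded. The difference between the effects at 8 h and 1 h had 980 higher and 1165 lower calls, with 785 to 946 and 909 to 1125 as single arrays were left out. With no intensity trend it had 714 higher and 887 lower calls. With arrays centred on the median it had 1205 higher and 978 lower calls, so the larger side depended on the scaling. The other settings kept more lower than higher calls. For the 8 h effect, the share of higher among all calls lay between 48.8% and 52.2% under all settings. The median 8 h shift of all probe sets was 0.030, or 0.028 after quantile normalization.

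Of the 126 counts of group members, 69 stayed within 1.5 times under every setting and 57 did not, most of them counts of 5 or fewer. Among the 163 genes the naming rule gives, 117 kept their call and direction under every one of the 14 refits that included them and 46 lost it under at least 1, 45 of them when an array was left out, and none reversed. The filter on low signal left out 13 of the 163, of which 7 are among the 117. A fit with fewer arrays has fewer degrees of freedom. None of the probe sets of the 5 group genes with more than 1 was called, with log2 differences from -0.50 to 0.34. Simulated data had the design of the 8 h comparison and 22746 probe sets. In them 100 probe sets were changed by 0.5 and 100 by 1 on the log2 scale. Of these, 24% and 77% were recovered, with 10 false calls among 111, a higher share than the threshold aims at. In the real data a far larger share, 18.1%, was called. The adjusted p depends on that share, so the recovery in the real comparison was not measured. Small changes were mostly missed in this simulation and may be missed in the data, and dim genes are bounded by the pseudocount.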
